A study of Labrus bergylta with 77 samples.

Results

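The deposited expression table of ballan wrasse (Labrus bergylta) larvae holds 98 rows whose gene name is TRIM25, of 29932 rows in all. They were taken by that name alone with case ignored, 77 of them spelled TRIM25 and 21 spelled Trim25, and each is called here by its LABE identifier. The table covers 77 pools of whole larvae, whose messenger RNA was sequenced at 7 stages set by body length, from before first feeding until the fish lived on dry feed. From stage BW2 on, plankton was fed in tanks B5, B7 and B9 and the control diet of rotifers and Artemia in tanks B6, B8 and B10, with 2 pools from each tank at each stage. The first stage, BW0, has 5 unfed incubator pools at 4 days post hatch (dph) and 4.0 mm, whose RNA was extracted with TRIzol, while QIAzol was used for all later pools. Plankton and control larvae were both sampled at 9 dph at BW2, then at 18 and 16 dph at BW3, 28 and 26 dph at BW4, and 41 and 36 dph at BW5. Both diets were sampled at 58 to 59 dph at BW6 and at 79 to 80 dph at BW7. Every tank received dry feed as well from 40 dph, and nothing else after 56 dph, so the plankton larvae of BW5 had already met dry feed while the control larvae of BW5 had not, and no live feed was given at BW6 or BW7. The fish came from 1 broodstock, no genotype is given, and every pool holds all tissues of several larvae.

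TRIM25 in mammals is a RING-finger E3 ubiquitin ligase that modifies the viral RNA sensor RIG-I and so promotes interferon production, and its own gene responds to interferon. TRIM proteins share a RING finger, B-boxes and a coiled coil, often followed by a PRY-SPRY domain that binds targets. In teleost fishes some branches of the TRIM family, such as the finTRIM genes of zebrafish and trout, exist in many copies. How the name TRIM25 was given to the wrasse sequences is not stated in the sources used here, and the name alone does not show a role.

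Levels are given in TPM, transcript abundances that are scaled by length and sum to 1000000 in each pool, so rows can be compared with each other but the read depth is unknown. The tank is the replicate, and a library below is either a BW0 pool or a tank at a stage, with its 2 pools averaged. Between 14958 and 19641 genes reached 1 TPM in a pool, and the lowest number was found at BW2. The pools of a group correlated with a median of 0.978 over genes, and 9 pools correlated better with another group than with their own. Of these a pool of BW2 plankton tank B5 stood furthest apart, at 0.942 with its own group and 0.974 with BW0, and a pool of BW2 control tank B8 stood at 0.971 with its own group and 0.978 with BW3 plankton. A BW0 pool among the 9 stood at 0.963 with its own group and 0.967 with BW2 control. It is the only BW0 pool left where pools with a spaced stage name in their titles are left out below. Salmon divides reads between similar transcripts, so the levels of near-identical copies are uncertain.

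Most copies were barely detected. Of the 98 rows, 6 were at 0 TPM in all 77 pools, 46 never reached 1 TPM in any pool, and 29 were above 0 in fewer than 10 pools. Only 7 rows were above 0 in every pool, 12 had a mean of at least 1 TPM over the 13 stage and diet groups, and 3 had a mean of at least 5 TPM. The median row stood at 0.127 TPM, against 2.98 TPM for all rows of the table. LABE_00019008 was the highest, with a mean of 10.4 TPM, ahead of LABE_00055998 at 5.31 TPM and LABE_00003815 at 5.12 TPM. The next 5 were LABE_00036974 at 2.99 TPM, LABE_00078793 at 2.37 TPM, LABE_00090401 at 2.08 TPM, LABE_00077612 at 2.02 TPM and LABE_00002650 at 1.92 TPM.

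**Figure D1:**
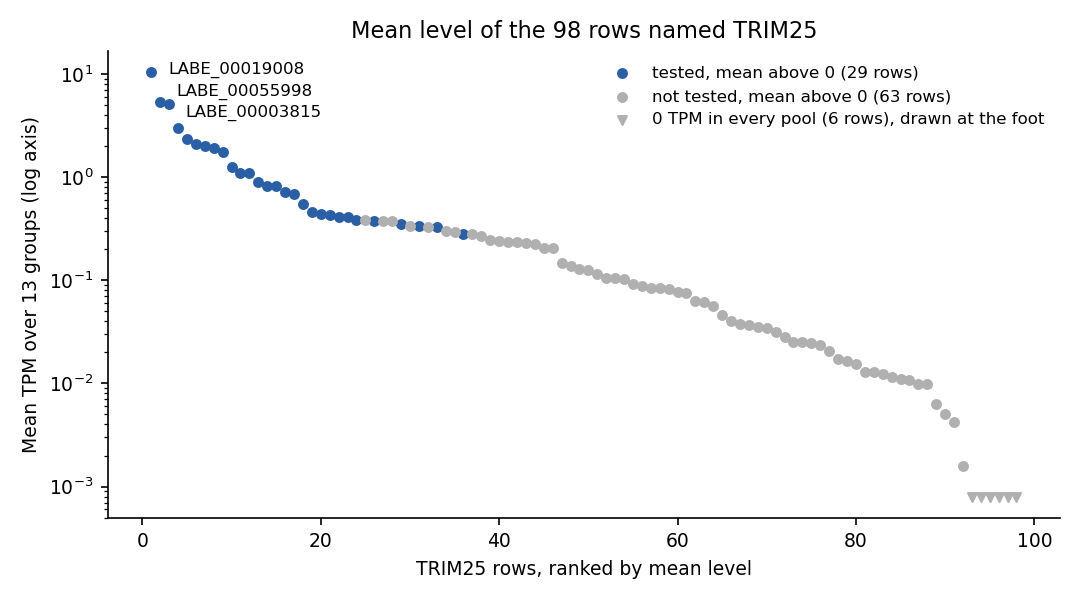
Mean TPM over the 13 groups (log axis) of the 98 rows named TRIM25, ranked from highest to lowest, with the 29 tested rows in blue and the 69 untested rows in grey, 6 of which were at 0 TPM in every pool. LABE_00019008, at 10.4 TPM, stands above all others, and most rows lie under 1 TPM.

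The spelling of the name went with the level. All but 1 of the 8 highest rows were spelled Trim25, although this spelling belongs to only 21 of the 98 rows. At least 1 TPM in at least 3 of the 41 libraries was required for testing, and this was met by 11 of 21 Trim25 rows (52.4%) and by 18 of 77 TRIM25 rows (23.4%). In all, 29 of 98 rows (29.6%) passed, against 73.6% of the whole table, 27.2% of 466 rows of other TRIM genes, 47 of 198 rows named TRIM16 and 16 of 99 rows named TRIM35. The 5 rows that passed with exactly 3 libraries had means of 0.282 to 0.443 TPM, and LABE_00079823, which missed by 1 library, had a mean of 0.0762 TPM. A row that passed through a stage where it is high had to vary over stages, so the counts below describe 29 rows, and the 69 untested rows, which hold 12.8% of the summed TPM, are not covered by them.

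Summed over all 98 rows, the level was lowest in control larvae at BW2 and highest at BW6. The sum was 55.4 ± 8.73 TPM (SD, n = 5 pools) at BW0, and at BW2 48.5 ± 5.81 TPM in plankton and 33.4 ± 5.46 TPM in control larvae (SD, n = 3 tanks each). Plankton tanks at BW2 lay between 41.9 and 52.8 TPM and control tanks between 27.7 and 38.5 TPM, so the diets did not overlap. From BW3 to BW5 the group means lay between 47.4 and 51.1 TPM, with overlapping tanks. At BW6 the sum was 74.95 ± 6.71 TPM in plankton and 69.8 ± 4.81 TPM in control larvae, and every tank lay above every tank of BW3 to BW5. At BW7 the sum was 56.0 ± 2.61 TPM in plankton and 60.5 ± 3.25 TPM in control larvae, and every control tank was above every plankton tank, the closest at 57.7 TPM in control and 57.6 TPM in plankton larvae. These sums are a description and were not tested, since the rows were chosen with earlier results known.

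**Figure D2:**
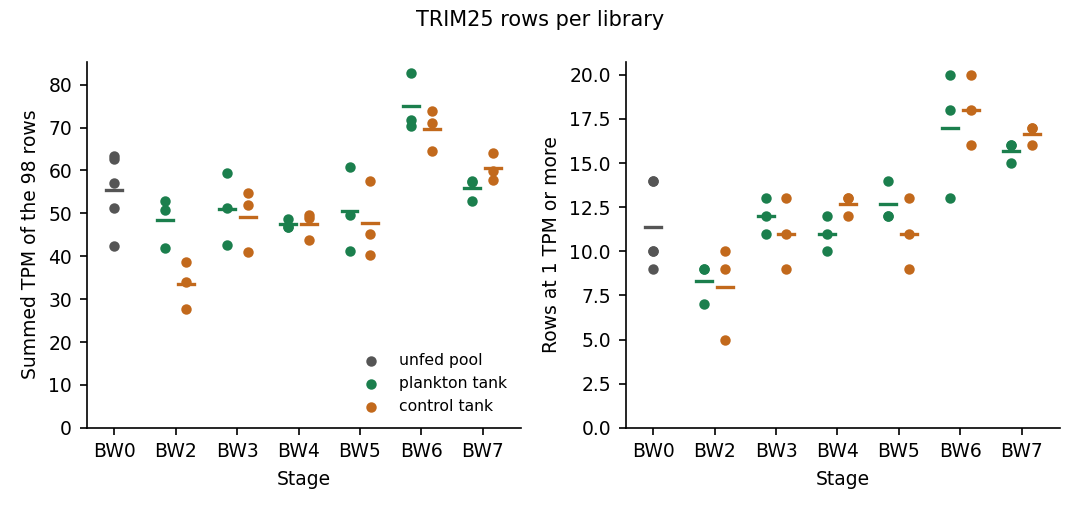
Summed TPM of the 98 TRIM25 rows (left) and number of rows at 1 TPM or more (right) in each library by stage, with plankton tanks left of control tanks, points for tanks or unfed pools and bars for group means. The sum was 74.95 TPM in plankton and 69.8 TPM in control larvae at BW6, where the mean number of rows was 17 in plankton and 18 in control larvae.

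More copies reached 1 TPM on average at BW6 and BW7 than at earlier stages, and the family came to rest less on its highest member. The number of rows at 1 TPM or more per library averaged 11.4 at BW0. At BW2 it was 8.33 in plankton and 8 in control larvae, and from BW3 to BW5 the group means lay between 11 and 12.7. At BW6 it was 17 in plankton and 18 in control larvae, and at BW7 15.7 in plankton and 16.7 in control larvae. Of all genes, 14958 to 18957 reached 1 TPM in a pool of BW2 plankton and 16324 to 18729 in one of BW2 control larvae. The ranges for plankton and control were 18911 to 19457 and 18836 to 19554 at BW3, and 18112 to 19641 and 18246 to 18988 at BW6. At BW7 they were 18127 to 18683 and 17993 to 18409. Their bearing on the TRIM25 counts was not tested. LABE_00019008 held 37.6% of the sum in plankton and 28.3% in control larvae at BW2, and 11.8% in plankton and 11.5% in control larvae at BW7. A lower level in a pool of whole larvae can mean fewer cells of a type or less RNA per cell, and these cannot be told apart.

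Among the 29 tested rows, 15 (51.7%) had their highest stage mean at BW6, against 10.8% of all 22028 tested genes, and 5 had it at BW7, 3 at BW0, 2 each at BW3 and BW4, and 1 each at BW2 and BW5. The filter bears on this share, since 6 of the 15 rows reached 1 TPM in 3 libraries only by counting those of BW6, and 9 of the 23 rows that passed without BW6 had their highest mean there. At least 1 of the 6 steps between neighbouring stages was called in 21 of the 29 rows. The matching share of all genes was not computed. Single steps called from 29% to 68.7% of all genes, so this count does not set the rows apart. Steps were tested over both diets with equal weight by limma on log2(TPM + 1), and calls needed an adjusted p (Benjamini-Hochberg, over all tested genes) under 0.05. Differences below are on that log2 scale with their standard error, and the pseudocount of 1 shrinks those of low rows. TPM are relative, and the median of all genes itself moved, by -0.373 in BW2 minus BW0, 0.418 in BW3 minus BW2, -0.116 in BW4 minus BW3, -0.217 in BW5 minus BW4, -0.0796 in BW6 minus BW5 and -0.102 in BW7 minus BW6. Rescaling by median-of-ratios size factors brings these medians near 0, and the counts after it are given beside those on TPM. The shares of all genes given below are on TPM only. They are no background for the counts with size factors.

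**Figure D3:**
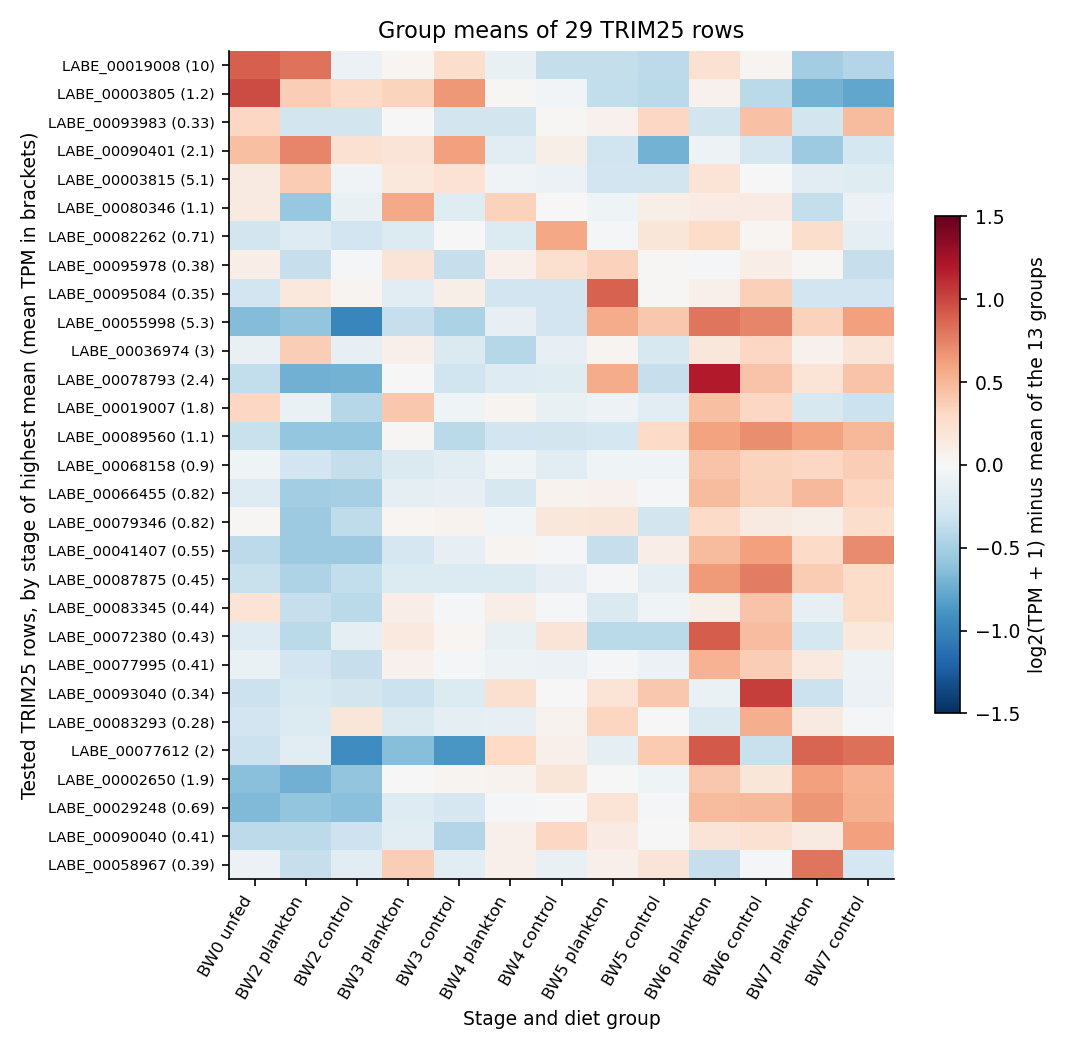
Group means of log2(TPM + 1) minus the mean of the 13 groups for the 29 tested TRIM25 rows, ordered by the stage of their highest mean, with mean TPM in brackets. Red marks a group above the row's mean and blue one below it. The bottom 20 rows had their highest stage mean at BW6 or BW7, and the top rows, led by LABE_00019008, are red at BW0 and mostly blue at BW7.

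From BW0 to BW2, when larvae began to feed and the extraction reagent also changed, 7 of 29 rows were lower and none higher, where 63.2% of all genes were called, 59.4% lower and 3.8% higher. Of the 7, LABE_00083345 passed the filter only by counting a pool of BW0. Feeding, age and reagent cannot be told apart in this step. LABE_00019008 had a lowest, median and highest value of 8.79, 13.4 and 20.6 TPM over the 6 tanks at BW2 and of 16.9, 20.8 and 20.9 TPM over the 5 pools at BW0. The groups overlapped, since 2 of the 3 plankton tanks of BW2 lay within the range of BW0. The difference was -0.55 ± 0.12 (limma, adjusted p = 0.000194), but -0.06 with size factors (adjusted p = 0.754, the highest over its alternatives, which began at 3.76e-05). LABE_00003805 fell by 0.76 ± 0.20 to 1.65 TPM at BW2, against 3.22 TPM at BW0 (limma, adjusted p = 0.00147). LABE_00019007 fell by 0.61 ± 0.17 to 1.26 TPM at BW2, against 2.38 TPM at BW0 (limma, adjusted p = 0.00199), a call not kept with size factors (-0.31, adjusted p = 0.116, with a range of 8e-05 to 0.359 over its alternatives). With size factors the split of the whole group was 3 rows higher and 2 lower, and 0 rows were called without the pools whose titles have a spaced stage name, which leaves 1 pool of BW0.

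At BW3, 10 of 29 rows were higher than at BW2 and none lower, where 68.7% of all genes were called, 63.3% higher and 5.45% lower. Of the 10, LABE_00083345 passed the filter only by counting a tank of BW3. With size factors the split turned to 2 higher and 4 lower. LABE_00002650 kept its rise under both scalings. Its lowest, median and highest tanks were 1.19, 2.06 and 2.33 TPM at BW3 against 0.618, 0.771 and 0.934 TPM at BW2, with no overlap, a difference of 0.69 ± 0.10 (limma, adjusted p = 5.66e-07). LABE_00080346 stood at 1.41 TPM at BW3 and 0.645 TPM at BW2 with overlapping tanks, a difference of 0.56 ± 0.19 (limma, adjusted p = 0.0116) that was lost with size factors and without tank B7. LABE_00078793 passed narrowly at 0.54 ± 0.24 (limma, adjusted p = 0.0490), and under 11 of 14 alternatives it did not pass, among them leaving out tank B5, B6, B7 or B8 and pairing by tank as a replicate block (adjusted p = 0.0691, in a range of 0.00949 to 0.424).

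The steps through BW4 and BW5 moved few rows. At BW4, 1 of 29 rows was higher and 4 were lower than at BW3, where 29% of all genes were called, 6.26% higher and 22.8% lower. The higher row, LABE_00090040, was tested only because of its BW4 libraries. With size factors 1 was higher and none lower, and without tank B6 or B9 only 1 row was called. LABE_00019008 stood at 8.25 TPM at BW4 and 11.2 TPM at BW3 (-0.36 ± 0.11, limma, adjusted p = 0.0132), LABE_00003805 at 1.06 TPM at BW4 and 1.94 TPM at BW3, and LABE_00090401 at 1.87 TPM at BW4 and 2.93 TPM at BW3. These calls depend on the scaling and on few tanks, and none of the 3 was kept with size factors. That of LABE_00019008 was lost under 4 of 14 alternatives, among them without tank B6 or B9. Those of LABE_00003805 and LABE_00090401 were lost under 11 and 10 of 14. At BW5, 1 of 29 rows was higher and 2 were lower than at BW4, where 49.8% of all genes were called, 10.6% higher and 39.1% lower, and with size factors 2 were higher and none lower.

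LABE_00055998, the second highest row, made its largest step here. Its lowest, median and highest tanks were 5.73, 7.22 and 8.79 TPM at BW5 against 3.55, 4.15 and 4.54 TPM at BW4. The stages did not overlap, and the difference of 0.68 ± 0.09 (limma, adjusted p = 4.24e-07) was called under all 14 alternatives. LABE_00090401 fell by 0.47 ± 0.17 to 1.08 TPM at BW5, against 1.87 TPM at BW4 (limma, adjusted p = 0.0225), a call lost with size factors and without tank B5, B6, B9 or B10. LABE_00003815 stood at 4.00 TPM at BW5 and 4.79 TPM at BW4, a called difference of -0.21 ± 0.07 (limma, adjusted p = 0.0124) that turned to 0.03 with size factors (adjusted p = 0.806, the highest over its alternatives, which began at 0.00429).

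The step to BW6, when dry feed was the only feed, had more copies called higher than any other step between neighbouring stages. Feed, age and length changed together in this step and cannot be told apart. Larvae were 10.1 to 10.6 mm long at BW5 and 16.0 to 16.5 mm at BW6. Of 29 rows, 15 (51.7%) were higher than at BW5 and none lower, where 42.5% of all genes were called, 18.1% higher and 24.4% lower, and the median row moved by 0.35 against -0.08 for all genes. With size factors 16 were higher and none lower, a count with no share of all genes on that scaling beside it. Of the 15 rows, 4 were tested only because of their BW6 libraries, which makes the share partly a product of the filter, and 11 of the 23 rows that passed without BW6 were called higher. LABE_00019008 rose by 0.51 ± 0.11 to 10.9 TPM at BW6, against 7.49 TPM at BW5, with overlapping tanks (limma, adjusted p = 0.000435). LABE_00003815 rose by 0.38 ± 0.07 to 5.53 TPM at BW6, against 4.00 TPM at BW5, without overlap (limma, adjusted p = 5.67e-05). LABE_00019007 had 2.19, 2.36 and 3.42 TPM as its lowest, median and highest tanks at BW6 and 0.973, 1.63 and 1.89 TPM at BW5, without overlap, a difference of 0.52 ± 0.16 (limma, adjusted p = 0.00841) that was lost without tank B5 (0.36, adjusted p = 0.116, in a range that began at 0.00167).

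The 2 widest steps to BW6 among called rows with a mean of at least 1 TPM rest on variable tanks. LABE_00078793 had 1.28, 5.02 and 7.47 TPM as its lowest, median and highest tanks at BW6 and 0.651, 3.22 and 3.82 TPM at BW5. LABE_00089560 had 0.606, 2.60 and 3.44 TPM at BW6 and 0.109, 0.949 and 1.59 TPM at BW5. Both overlapped between the stages, with differences of 0.61 ± 0.24 (limma, adjusted p = 0.0427) and 0.63 ± 0.24 (limma, adjusted p = 0.0377). The call of LABE_00078793 was lost under 11 of 14 alternatives, among them without tank B5, B6, B8 or B9 and with the tank as a replicate block (adjusted p = 0.0579, in a range of 0.000482 to 0.420), and that of LABE_00089560 under 6, with the same tanks among them. The count of 15 was 9 without tank B6, without B8 or without B9.

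Leukocyte markers moved in the same step. All 16 rows of a pan-leukocyte marker list were called higher at BW6 than at BW5, and their summed level was 444 to 518 TPM over the tanks of BW6 against 121 to 291 TPM at BW5, so the stages did not overlap. All 5 T-cell rows and 8 of 10 tested macrophage and granulocyte rows were higher as well, and 3 of 14 epithelial rows were higher and 1 lower. The shares of all genes called in this step were 18.1% higher and 24.4% lower. None of the defining pan-leukocyte, T-cell or macrophage and granulocyte markers was at 0 at BW6. Of the 3 B-cell rows, 1 was at 0 in all control tanks of BW6, and 1 of 2 tested was called higher. The steps before and after differed. In BW5 minus BW4, 9 of 16 pan-leukocyte rows were higher and 0 lower, against 1 higher and 2 lower of 29 TRIM25 rows. In BW7 minus BW6, 2 pan-leukocyte and 4 T-cell rows were higher and 1 macrophage and granulocyte row was lower. There 1 TRIM25 row was higher and 9 were lower. Of all genes, 10.6% were higher and 39.1% lower in BW5 minus BW4, and 11.6% higher and 25.4% lower in BW7 minus BW6. The part of these cells in the TRIM25 levels was not tested.

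Between BW6 and BW7 more rows fell than rose, and 7 of the 15 that rose at BW6 were among those that fell. The same BW6 libraries enter both steps, so their calls are not independent, and the overlap of 7 rows was not tested. LABE_00077995, LABE_00087875 and LABE_00093040, all called lower at BW7, were tested only because of their BW6 libraries. Of 29 rows, 9 were lower than at BW6 and 1 higher, where 36.9% of all genes were called, 25.4% lower and 11.6% higher. With size factors 7 were lower and 1 higher, and without tank B8 6 rows were called. LABE_00019008 had 6.21, 6.71 and 7.49 TPM as its lowest, median and highest tanks at BW7 and 9.12, 11.0 and 12.0 TPM at BW6, without overlap, a difference of -0.61 ± 0.11 (limma, adjusted p = 6.27e-05). LABE_00019007 stood at 1.24 TPM at BW7 and 2.50 TPM at BW6, again without overlap (-0.68 ± 0.16, limma, adjusted p = 0.00102). LABE_00003805 fell by 0.58 ± 0.19 (limma, adjusted p = 0.0165), a call lost without tank B9 or B10, and its mean of 1.01 TPM at BW6 was drawn up by 1 plankton tank at 3.14 TPM. LABE_00002650 was the row that was higher, at 3.17 TPM at BW7 and 2.46 TPM at BW6 (0.28 ± 0.10, limma, adjusted p = 0.0241), and this call was lost without tank B7, B9 or B10.

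Over the whole fed period some of the highest rows rose and others fell, while LABE_00036974 was not called. It was at 3.295 TPM at BW7 and 3.379 TPM at BW2 (0.02 ± 0.13, limma, adjusted p = 0.881). At BW7, 14 of 29 rows were higher than at BW2 and 4 were lower, where 72.7% of all genes were called, 34.7% higher and 38% lower, and with size factors the split was also 14 and 4. Of the 14, LABE_00041407 and LABE_00090040 passed the filter only by counting libraries of BW7. LABE_00055998 was at 7.16 ± 0.94 TPM at BW7 and 2.42 ± 0.59 TPM at BW2 (SD, n = 6 tanks each), a rise of 1.28 ± 0.09 (limma, adjusted p = 5.18e-14). LABE_00002650 was at 3.17 ± 0.38 TPM at BW7 and 0.775 ± 0.11 TPM at BW2 (1.23 ± 0.10, limma, adjusted p = 7.14e-13). LABE_00077612 was at 3.78 ± 1.40 TPM at BW7 and 1.09 ± 1.31 TPM at BW2 (1.27 ± 0.39, limma, adjusted p = 0.00413). The tanks of the first 2 rows did not overlap between the stages, and those of LABE_00077612 did.

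The 4 rows that fell were LABE_00003805, LABE_00090401, LABE_00019008 and LABE_00003815. LABE_00003815 fell least, by 0.33 ± 0.07 with overlapping tanks (limma, adjusted p = 8.88e-05). LABE_00019008 was at 6.77 ± 0.54 TPM at BW7 and 13.7 ± 5.08 TPM at BW2 (SD, n = 6 tanks each), a difference of -0.84 ± 0.11 without overlap (limma, adjusted p = 4.91e-08). Its SD at BW2 spans diets that lay apart, with means of 18.1 TPM in plankton and 9.20 TPM in control larvae. At BW7 these means were 6.58 TPM in plankton and 6.97 TPM in control larvae. LABE_00003805 was at 0.238 ± 0.12 TPM at BW7 and 1.65 ± 0.53 TPM at BW2 (-0.96 ± 0.19, limma, adjusted p = 3.6e-05), without overlap between the stages. LABE_00090401 was at 1.22 ± 0.30 TPM at BW7 and 3.28 ± 1.53 TPM at BW2 (-0.84 ± 0.17, limma, adjusted p = 5.42e-05), with overlapping tanks. At BW7, LABE_00055998 and LABE_00019008 had come close, at 5.95 to 8.04 TPM and 6.21 to 7.49 TPM over the tanks. At BW2 LABE_00019008 was above LABE_00055998 in every tank, at 8.79 to 20.6 TPM against 1.74 to 3.27 TPM.

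Most diet calls among these rows came at BW2, a few days after first feeding, which was also where most diet calls of all genes came. Plankton larvae had higher levels of 4 of 29 rows than control larvae and lower levels of none, where 29.1% of all genes were called, 9.49% higher and 19.7% lower. The share called higher, 13.8%, is not far from that of all genes, and the 4 rows are the 4 highest of the family by mean level. With the groups of BW2 alone in the fit 1 row was called, and without tank B8, B9 or B10 2 were. The median of all genes stood at -0.10 in plankton minus control and near 0 with size factors, under which 4 rows were also higher and none lower. LABE_00019008 had 16.8, 16.95 and 20.6 TPM in plankton tanks B5, B7 and B9, against 10.0, 8.81 and 8.79 TPM in control tanks B6, B8 and B10. The diets did not overlap. On TPM, the plankton tanks lay in or just under the range of the unfed BW0 pools, 16.9 to 20.9 TPM, while the control tanks lay well below it. This comparison with BW0 depends on the scaling, and the reagent differed as well. Over both diets, BW2 minus BW0 was -0.55 on TPM and -0.06 with size factors. The diet difference at BW2 was 0.89 ± 0.16 (limma, adjusted p = 7.1e-05) and was called under all 14 alternatives. Without the pools of tanks B5 and B8 that stand apart it was 0.87 (limma, adjusted p = 7.07e-05, where the alternatives ran from 5.77e-07 to 0.0419).

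LABE_00003815 had 6.92, 6.73 and 6.97 TPM in plankton tanks B5, B7 and B9, against 4.67, 5.22 and 4.62 TPM in control tanks B6, B8 and B10. The diets did not overlap, and here the unfed pools, at 5.05 to 6.27 TPM, lay below all plankton tanks and overlapped the control tanks. The limits of scaling and reagent apply to this comparison with BW0 too. The diet difference at BW2 was 0.44 ± 0.10 (limma, adjusted p = 0.00115), and it was not called with the 2 groups of BW2 alone in the fit (adjusted p = 0.0838, with others from 1.89e-05). LABE_00055998 had 2.98, 2.42 and 3.27 TPM in plankton tanks and 1.74, 2.04 and 2.07 TPM in control tanks, a difference of 0.37 ± 0.13 (limma, adjusted p = 0.0306). LABE_00036974 had 3.15, 4.25 and 4.97 TPM in plankton tanks and 2.99, 1.90 and 3.02 TPM in control tanks, a difference of 0.51 ± 0.19 (limma, adjusted p = 0.0392). In both rows every plankton tank was above every control tank, but the calls were lost under 9 and 7 of 14 alternatives, that of LABE_00055998 without tank B5, B6, B8, B9 or B10 and that of LABE_00036974 without tank B7, B8, B9 or B10. Without the pools that stand apart, LABE_00055998 differed by 0.25 (limma, adjusted p = 0.164, the highest over its alternatives, which began at 0.000724).

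**Figure D4:**
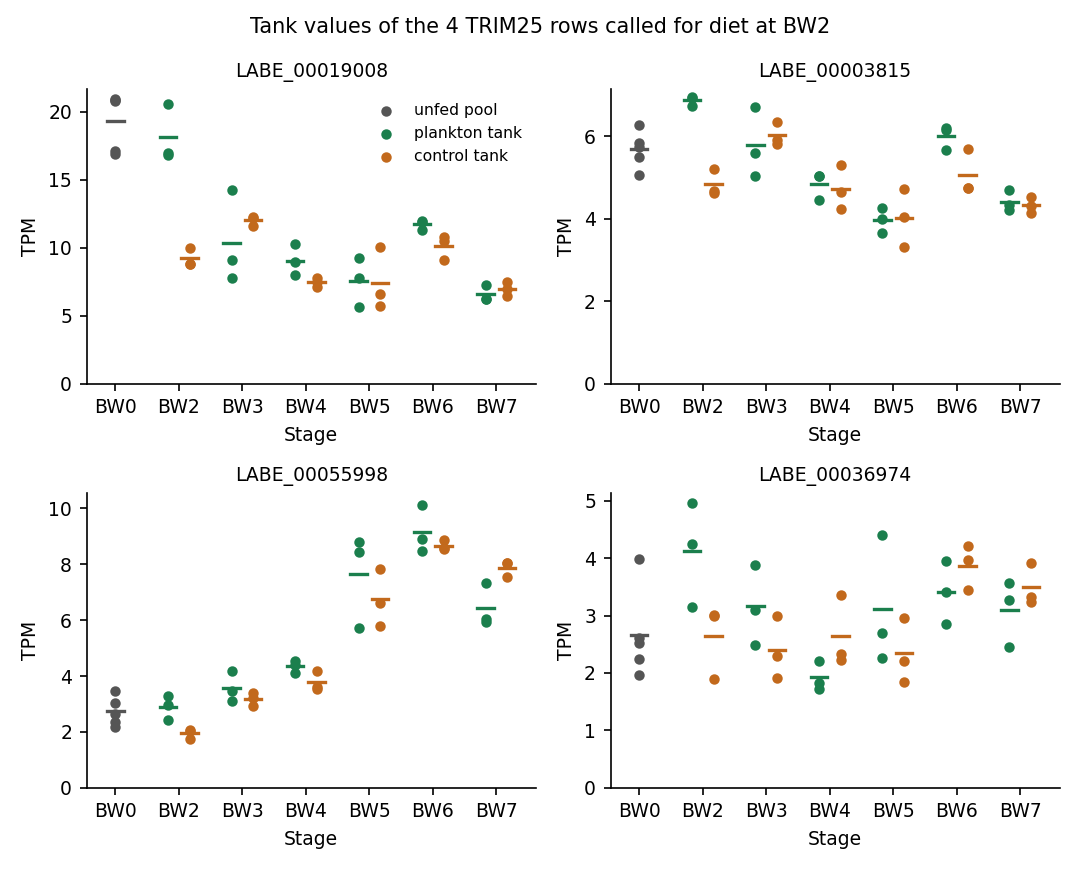
TPM of LABE_00019008, LABE_00003815, LABE_00055998 and LABE_00036974 in each tank by stage, with plankton left of control and the 5 unfed pools at BW0, and bars for group means. At BW2 all plankton tanks of LABE_00019008, at 16.8 to 20.6 TPM, sit above all control tanks, at 8.79 to 10.0 TPM, and at BW7 the diets overlap.

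Of the 5 marker lists, only the macrophage and granulocyte list had sums that did not overlap between the diets at BW2. The summed level of 11 macrophage and granulocyte rows was 25.1 to 50.5 TPM in plankton tanks against 21.8 to 24.4 TPM in control tanks, with 2 of these rows at 0 in each diet and 0 of 10 tested rows called. The pan-leukocyte sum was 78.4 to 109 TPM in plankton and 77.8 to 83.5 TPM in control tanks, where 1 of 16 rows was called lower. Of 14 epithelial rows, 3 were called higher and 3 lower. The shares of all genes called at BW2 were 9.49% higher and 19.7% lower. The part of these cell types in the differences of the TRIM25 rows was not tested.

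After BW2 hardly any diet difference passed the test. Calls were 0 of 29 at BW3, BW4, BW5 and BW7, where 0.281%, 0.667%, 0.3% and 0.0863% of all genes were called. At an unadjusted p under 0.05 there were 1, 1, 1 and 2 rows. Shares of all genes, here and below, are at the adjusted threshold, and none is given for an unadjusted p. At BW6, 1 of 29 rows was lower in plankton larvae and 5 had an unadjusted p under 0.05, where 0.286% of all genes were called lower and 0.804% in all. This row, LABE_00093040, was above 0 in only 20 of 77 pools. It reached 1 TPM in just 3 libraries, 2 of them BW6 control tanks, so it was tested only because it is high there. At BW6 its tanks were at 0, 0.595 and 0 TPM on plankton (B5, B7, B9) and at 1.88, 2.50 and 0.697 TPM on control (B6, B8, B10), without overlap, a difference of -1.09 ± 0.24 (limma, adjusted p = 0.0143). It was not called with a pseudocount of 0.1, with BW6 alone in the fit, or without tank B5, B6, B8 or B9, with adjusted p from 0.000854 to 0.466 over its alternatives. Some marker sums stood apart between the diets at this stage. The macrophage and granulocyte sum was 276 to 354 TPM in plankton and 145 to 183 TPM in control tanks. The T-cell sum was 19.4 to 28.6 TPM in plankton and 13.2 to 19.1 TPM in control tanks. The B-cell sums nearly met, at 3.435 to 4.327 TPM in plankton and 3.345 to 3.429 TPM in control tanks. They rest on 3 rows, of which 1 was at 0 in all control tanks. The pan-leukocyte and epithelial sums overlapped, and of all these rows 1 T-cell row was called, higher in plankton larvae. Their part in the TRIM25 values was not tested.

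At BW3 the smallest unadjusted p belonged to LABE_00080346, with 1.98, 1.58 and 2.53 TPM in plankton tanks B5, B7 and B9 and 0.598, 0.896 and 0.877 TPM in control tanks B6, B8 and B10. The diets did not overlap, but the difference of 0.73 ± 0.28 was not called (limma, adjusted p = 0.558). At the other stages it belonged to LABE_00082262 at BW4 (-0.84 ± 0.28, adjusted p = 0.307), LABE_00078793 at BW5 (0.94 ± 0.34, adjusted p = 0.570) and LABE_00058967 at BW7 (0.83 ± 0.38, adjusted p = 1), all by limma. LABE_00055998 stood at 6.06, 5.95 and 7.31 TPM in plankton tanks and 7.55, 8.04 and 8.03 TPM in control tanks at BW7, without overlap (-0.27 ± 0.13, limma, adjusted p = 1). Averaged over the 6 fed stages, 0 of 29 rows differed between the 3 plankton and 3 control tanks, where 1.75% of all genes were called, and 3 rows had an unadjusted p under 0.05. LABE_00019008 was the first of these, at 10.6 TPM in plankton and 8.86 TPM in control larvae (0.17 ± 0.06, limma, adjusted p = 0.168).

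Whether the diet difference itself changed with stage was tested by limma as an interaction with the tank as a fixed term. It was called for 1 of 29 rows, LABE_00019008 (F = 5.78, adjusted p = 0.0154), where 15% of all genes were called, and 7 rows had an unadjusted p under 0.05. With size factors 5 rows were called, and without tank B9 3 were. LABE_00019008 had 18.1 TPM in plankton and 9.20 TPM in control larvae at BW2, 11.7 TPM in plankton and 10.1 TPM in control larvae at BW6, and 6.58 TPM in plankton and 6.97 TPM in control larvae at BW7. The call was lost without tank B6, B7, B8 or B10, with adjusted p from 0.00031 to 0.0951 over its alternatives. LABE_00036974 and LABE_00003815 followed at adjusted p of 0.0645 and 0.0879 by limma.

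Several low rows were seen in only some pools of the same tank. In LABE_00082262, 20 of the 36 pairs of pools from 1 tank and stage had a pool at 0 and the other at 1 TPM or more, and 6 pairs were both above 0. LABE_00077612, the seventh highest row, had 16 such pairs, was at 0 in 33 of 77 pools, and reached 8.14 TPM. LABE_00072380 had 12 such pairs. At least 1 such pair was found in 16 of the 29 tested rows. LABE_00019008 was above 0 in both pools of all 36 pairs, and the higher pool had a median of 1.14 times the lower. Over the 6 tanks at BW6, the tank means of LABE_00077612 ran from 0 to 5.57 TPM, and its diet difference there, 4.05 TPM in plankton against 1.28 TPM in control larvae, was not called although the tanks did not overlap (1.32 ± 0.55, limma, adjusted p = 0.440).

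**Figure D5:**
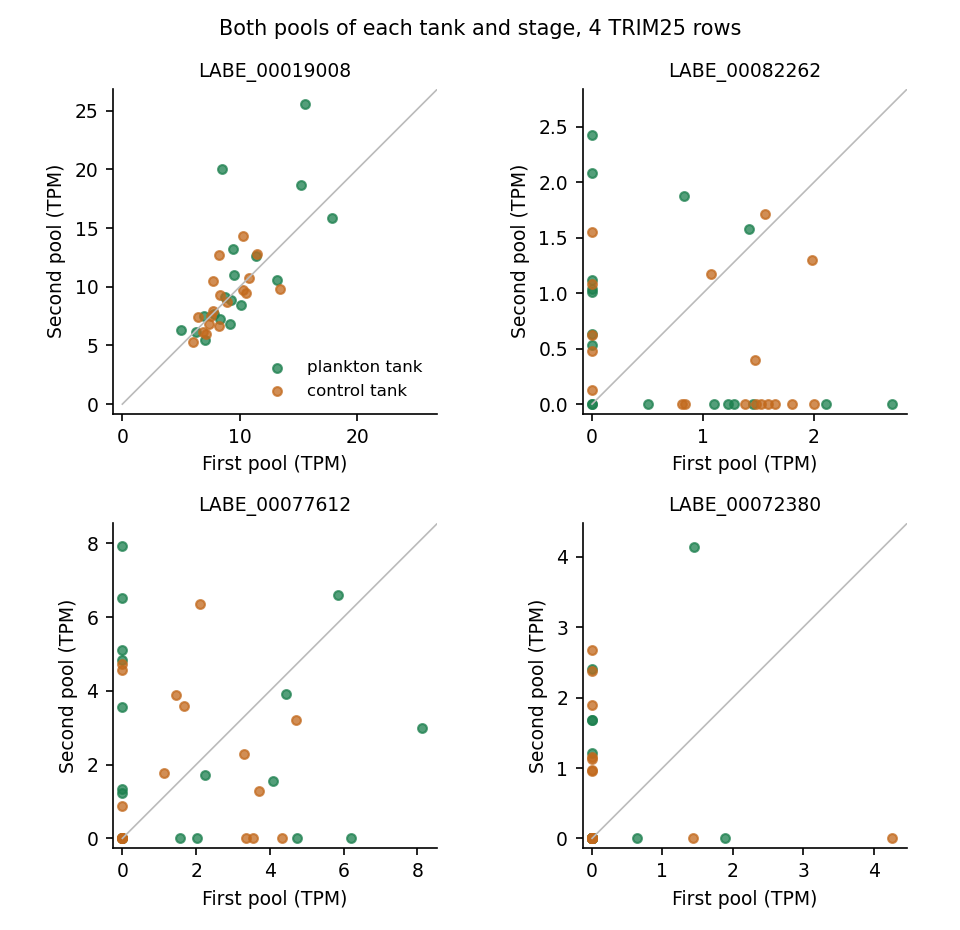
TPM in the second against the first pool of each tank and stage (36 pairs) for LABE_00019008 and the 3 tested rows with most pairs split between 0 and 1 TPM or more, plankton in green and control in orange, with the line of equality. Points of LABE_00019008 follow the line, while those of LABE_00082262, LABE_00077612 and LABE_00072380 lie mostly on the axes, with 20, 16 and 12 split pairs.

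Rows of other TRIM genes and of the RIG-I and interferon pathway give the setting of these changes. Of 127 tested rows of other TRIM genes, 46 were higher and 11 lower at BW6 than at BW5, and 78 higher and 13 lower at BW7 than at BW2. Of all genes, 18.1% were called higher and 24.4% lower at BW6 than at BW5. At BW7 against BW2 the shares of all genes were 34.7% higher and 38% lower. Of 96 tested pathway rows, a list that holds 43 copies named samhd1, 38 were higher and 6 lower at BW6 than at BW5, and 88 were higher and none lower at BW7 than at BW2. Among those 88 were rsad2, the antiviral enzyme viperin, at 6.77 TPM at BW7 and 0.476 TPM at BW2 (2.42 ± 0.12, limma, adjusted p = 1.26e-17), and DTX3L (LABE_00081569), a ubiquitin ligase induced by interferon in mammals, at 10.4 TPM at BW7 and 1.02 TPM at BW2 (2.51 ± 0.12, limma, adjusted p = 3.76e-18). The median pathway row moved by 1.19 from BW2 to BW7, the median TRIM25 row by 0.33 and the median of all genes by -0.03.

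At BW2, 4 of 96 pathway rows were higher in plankton larvae and 6 lower, against 9.49% and 19.7% of all genes. The adaptor myd88 of Toll-like receptors was at 13.5 TPM in plankton and 7.45 TPM in control larvae (0.72 ± 0.16, limma, adjusted p = 0.0007) and IRF3 (LABE_00002128), a transcription factor that induces interferon genes downstream of RIG-I, at 0.428 TPM in plankton and 1.21 TPM in control larvae (-0.62 ± 0.16, limma, adjusted p = 0.00476). In the other TRIM rows 11 of 127 were higher and 6 lower. Whether the TRIM25 rows differed from either list was not tested.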

How the data were processed

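The 77 pools were sequenced from oligo(dT)-enriched RNA of whole larvae, per the labels' protocols. The deposited values are TPM, and Salmon and edgeR are named, without version or role, in the submitters' processing notes. The transcriptome build is not given in the sources used here. Each column sums to 1000000, which leaves the depth unknown and allows no counting intervals. RefSeq's gene list for the species, which holds trim25 and trim25l once each, shares no identifier with the deposited values, so no sequence or position was analysed here.

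Tanks and diets came from the labels. Nothing in them says that the 5 BW0 pools came from separate incubators. Log2(TPM + 1) values were averaged over the 2 pools of a tank, giving 36 tank libraries and 5 BW0 pools. The 22028 genes that reached 1 TPM in 3 or more of the 41 libraries entered 1 limma trend fit of 13 groups (residual degrees of freedom 28, prior 3.61), with Benjamini-Hochberg adjustment per contrast and a threshold of 0.05. The interaction and the mean diet difference were fitted on tanks. Steps between fed stages can be paired by tank, since the labels give the tank, and the deviations of the same tank at neighbouring stages correlated at -0.0805 to 0.300 over genes (median 0.0180, above 0.1 in 5 of 30). Diets were in different tanks and cannot be paired.

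Rows named in the text are the 8 highest by mean, the called rows with the smallest adjusted p for each diet contrast (up to 4 per direction), up to 3 called rows per direction and stage contrast with the largest difference and a mean of at least 1 TPM, and the 5 with the smallest interaction p. LABE_00079823, LABE_00072380, LABE_00058967 and the rows named for the filter, for an unadjusted p or for differing pools were chosen after their values were seen. The members, lists and tests were chosen with earlier results of these data known. Alternatives were a pseudocount of 0.1, no filter, size factors, pools as replicates, leaving out tanks or doubted pools, and single-stage fits. Scripts were tested on simulated data. Tools were Python 3.11.15, numpy 2.4.6, pandas 2.3.3, matplotlib 3.10.9, R 4.3.3, data.table (version 1.17.8) and limma 3.58.1.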

Additional observations from a re-analysis of the deposited data

Results flagged for a closer look

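The diet by stage interaction of LABE_00019008, the highest TRIM25 row, had F = 5.78 (limma, adjusted p = 0.0154), a test of whether its plankton minus control difference changed over the 6 fed stages. The call was lost under 4 of 14 alternatives, those without tank B6, B7, B8 or B10, with adjusted p from 0.00031 to 0.0951 over the alternatives. At BW2 the means were 18.1 TPM in plankton and 9.20 TPM in control larvae, and at BW3 10.4 TPM in plankton and 12.0 TPM in control larvae. The 5 unfed pools of BW0 were examined for outliers in 15 quantities, the 14 named rows and the summed level, and no pool lay far from the others. LABE_00093040 was at 0 in all 5 of these pools, so nothing could be seen for it. Fed groups were not examined in this way.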

How the results depend on the processing

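The depth is unknown, and with 3 tanks per diet and many rows near 0 a missed call does not show equal levels. Of the values of named rows under the alternatives, 390 kept direction and side of the threshold, 103 lost the call, 8 gained one and 1 reversed (LABE_00003815 in BW5 minus BW4, 0.027 with size factors). Counts of called rows moved as follows, and the causes were not tested apart from those that follow from fewer samples or more rows. With a pseudocount of 0.1, diet at BW6 had 0. Without the filter, BW2 minus BW0 had 12 and BW7 minus BW2 had 30, with more rows tested. With size factors, BW3 minus BW2 had 6, BW4 minus BW3 had 1 and the interaction 5. With each pool as its own replicate the interaction had 5. Without the doubted pools, BW4 minus BW3 had 2 and the interaction 3. Without the pools with a spaced title, BW2 minus BW0 had 0 and the interaction 2. Without the 2 BW2 pools that stand apart, a choice made after seeing the data, BW4 minus BW3 had 3. With the groups of 1 stage alone, diet at BW2 had 1, at BW4 1 and at BW6 0. Leaving out each tank in turn gave 2 to 3 for diet at BW2, 0 to 1 for diet at BW6, 1 to 5 for BW4 minus BW3, 9 to 17 for BW6 minus BW5, 6 to 9 for BW7 minus BW6 and 0 to 3 for the interaction. With the tank as a replicate block, the steps from BW3 minus BW2 to BW7 minus BW6 had 9, 6, 3, 14 and 10 and BW7 minus BW2 had 18. The block gained 1 call in BW4 minus BW3 and lost that of LABE_00078793 in BW3 minus BW2 and BW6 minus BW5, and it changed no other call of the 29 rows in these contrasts. The interaction without a replicate block had 1 call. The mean diet difference was not run with pools as replicates, since each tank counts once in it.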
